A study of Mus musculus with 6 samples.

Results

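Histone genes were the 51 rows of the deposited table whose gene names matched a fixed pattern for histones and that reached at least 10 normalized counts in at least 3 of the 6 libraries, out of 16645 genes that passed the same filter. The pattern covered linker histone H1, the core histones H2A, H2B, H3 and H4, and their variants. It matched 84 rows, of which 80 remained without those marked as pseudogenes (-ps). Of the 51, 40 were replication-dependent genes, 10 were variant genes and 1, H3f3aos, was an RNA from the strand opposite to H3f3a that is not a histone gene and is given separately. The remaining 29 matched genes were below the filter, and 7 of them were at 0 in every library.

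The libraries came from myotubes of C2C12, a mouse myoblast line that fuses in culture into multinucleate, muscle fibre-like cells. In 3 libraries the myotubes had been exposed to 20 µM sorafenib, a multikinase inhibitor used against cancer, for 24 h, and in 3 they had received the solvent, 0.1% DMSO, for the same period. All 6 come from a single cell line with no engineered allele in the labels, and the replicates are described as independent experiments. The series measured what sorafenib does to gene expression in muscle cells, and its title names cachexia and SET1/MLL, an enzyme complex that methylates histone H3.

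Replication-dependent histone genes supply new chromatin during S phase. Their mRNAs normally carry no poly(A) tail but end just after a conserved stem-loop that is bound by Slbp, and they are degraded when DNA synthesis stops. Variant histone genes lie outside the large clusters, mostly have introns and polyadenylated mRNAs, and are transcribed throughout the cell cycle, so that they can replace the replication-dependent proteins in cells that no longer divide, such as muscle fibres. The libraries were made from poly(A)-selected RNA, per the labels' protocols, so a change in a replication-dependent gene below is a change in its polyadenylated or co-purified RNA, not necessarily in its total mRNA.

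The stem-loop was looked for in the transcript models of GENCODE M21, with the consensus of the histone stem-loop on the sense strand only. It was found in 28 of the 40 replication-dependent genes tested (70.0%), in 1 of the 10 variant genes (10.0%), H2ax, and in 62 of 21901 protein-coding genes of the annotation (0.283%). The sites of some genes named below are shown in DNA letters, 5′ to 3′, with the stem-loop pattern in capitals and a few flanking bases. H1f2, H2ac24, H3c15 and H4c9 fell with sorafenib, H4c14 rose, and H2ax is the variant that has the element. H4c1 also rose, but it passed the filter only through the sorafenib libraries, which fixed its direction.
H1f2: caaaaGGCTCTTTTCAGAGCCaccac
H2ac24: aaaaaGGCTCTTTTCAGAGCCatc
H3c15: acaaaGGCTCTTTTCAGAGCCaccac
H4c9: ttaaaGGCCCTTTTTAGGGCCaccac
H4c14: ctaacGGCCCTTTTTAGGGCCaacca
H4c1: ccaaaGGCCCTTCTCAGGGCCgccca
H2ax: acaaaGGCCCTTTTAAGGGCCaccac
The capital letters were identical in H1f2, H2ac24 and H3c15, which fell, and also identical between H4c9, which fell, and H4c14, which rose. How far the annotated transcript ran past the element varied from 3 bases in H2ac24 to 840 in H1f2 and 1257 in H4c14.

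Across the whole table, sorafenib and DMSO libraries differed at 76.6% of genes tested (limma on log2 values, Benjamini-Hochberg adjusted p under 0.05), 38.8% higher and 37.8% lower, with a median log2 change of 0.02. Totals of normalized counts were 70211431 to 70598400 in sorafenib libraries and 77972419 to 78898086 in DMSO libraries. Of 8 myotube markers, 8 fell, with summed levels of 441349 to 527937 in sorafenib libraries and 1586335 to 1725799.9 in DMSO libraries; Myh3, an embryonic myosin heavy chain, had the highest level and changed by -2.01 on the log2 scale. All 8 were expressed in every library of both groups. Of the 20 mitosis and proliferation markers, 18 fell and 0 rose at adjusted p under 0.05 by limma, Cdk1 (-0.22) and Cenpe (0.12) did not pass, and the most abundant, Top2a, changed by -0.86 ± 0.09, with sums of 22087 to 23220.4 in sorafenib libraries and 39015 to 51126 in DMSO libraries. Among markers of other cells, 6 of 8 for unfused myoblasts fell, among them Ncam1, the most abundant (-1.90), and 2 rose (Myf5, 4.24, and Vcam1, 0.42), with sums of 48386 to 52434 in sorafenib libraries and 105652 to 109678 in DMSO libraries. All 4 tested fibroblast markers, of 6 listed, fell (Col3a1, -2.39; Dpt, -3.75; Pdgfra, -0.38; Dcn, -0.32), with sums of 24899.7 to 36053 in sorafenib libraries and 135089 to 159700.2 in DMSO libraries. Of 8 macrophage markers, 3 were tested, 2 rose (Cd68 by 3.06 and Cd14 by 1.21 on the log2 scale) and 1 fell (Itgam, -1.77), with sums of 989 to 1157 in sorafenib libraries and 379 to 411 in DMSO libraries, and the defining marker Adgre1 was at 0 in all 6. Of 6 endothelial markers 4 were tested and 3 fell (Cldn5, -2.98; Cdh5, -1.69; Vwf, -0.65), while Tek did not pass (0.96), with sums of 97.7 to 133 in sorafenib libraries and 149.8 to 199.8 in DMSO libraries. Of 6 adipocyte markers only Cd36 was tested, and it fell, with sums over the list of 403 to 690.1 in sorafenib libraries and 5553 to 5699 in DMSO libraries.

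The largest changes among variant genes were in the H2A.Z and H3.3 genes. H2az1, which encodes H2A.Z.1, a variant placed at promoters and enhancers, was 2.04-fold higher in sorafenib libraries, while H2az2, which encodes the closely related H2A.Z.2, was 2.15-fold lower. Macroh2a1 and H2ax also rose, and both H3.3 genes and the linker variant H1f0 fell. In all, 3 of the 10 variant genes rose, 6 fell and 1 did not pass the test (90% called, against 76.6% of all genes), with a median log2 change of -0.22 beside 0.02 over all genes. With libraries scaled to equal totals, and also with quantile normalization, 3 rose and 4 fell, as H3f3b and Macroh2a2 no longer passed. The 10 include H3f3c, which GENCODE M21 lists as a processed pseudogene.

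H2az1 on chromosome 3 had 20499, 19855 and 20129.9 normalized counts in the sorafenib libraries, against 10577, 9773 and 9335 in the DMSO libraries. Every sorafenib library lay far above every DMSO library, and the log2 change was 1.03 ± 0.05 (SE; limma adjusted p = 8.21e-08). H2az2 on chromosome 11 had 1324, 1468 and 1513 in sorafenib libraries, against 3092, 3183 and 2988 in DMSO libraries. The groups were again far apart but in the opposite order, with a log2 change of -1.11 ± 0.06 (limma adjusted p = 2.18e-07). Per kilobase of annotated exon, H2az1 averaged 11352 normalized counts in sorafenib libraries and 5571 in DMSO libraries, while H2az2 averaged 879 in sorafenib libraries and 1891 in DMSO libraries.

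Macroh2a1, which encodes a large H2A variant with a C-terminal macro domain found in repressed chromatin, had 5252, 5251 and 4946 in sorafenib libraries and 3876, 3784 and 3664 in DMSO libraries. All sorafenib libraries were higher, and the log2 change was 0.45 ± 0.04 (limma adjusted p = 8.31e-06). Its paralog Macroh2a2 had 418, 416 and 383 in sorafenib libraries and 539, 459 and 476 in DMSO libraries. The groups did not overlap but lay close together, and its change of -0.27 ± 0.09 (limma adjusted p = 0.0203) no longer passed with libraries scaled to equal totals (-0.12), with quantile normalization (-0.17), without DMSO library 1 (adjusted p = 0.0647) or without sorafenib library 3 (adjusted p = 0.074). H2ax, the variant that is phosphorylated around DNA breaks, had 1289.6, 1265 and 1273 in sorafenib libraries and 1178, 1086 and 1016 in DMSO libraries. The sorafenib libraries were tightly grouped just above the highest DMSO library, a change of 0.22 ± 0.06 (limma adjusted p = 0.0104).

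H3f3a and H3f3b encode the same protein, H3.3, the H3 form deposited outside S phase. H3f3a had 16516, 17773 and 18169 in sorafenib libraries, against 33965, 34407 and 34381 in DMSO libraries. The groups were far apart and each varied little, with a log2 change of -0.97 ± 0.04 (limma adjusted p = 4.72e-08). H3f3b had 25799, 24715 and 24660.2 in sorafenib libraries, against 28499.9, 28151 and 27546 in DMSO libraries; all sorafenib libraries were slightly lower and the change was -0.16 ± 0.03 (limma adjusted p = 0.00147), but it was -0.01 with libraries scaled to equal totals and 0.01 with quantile normalization, passing the test under neither. The H3f3a decrease was -0.82 and -0.80 under these scalings. H3f3c, a row of a single exon that GENCODE M21 lists as a processed pseudogene on chromosome 2, had 177, 217 and 112 in sorafenib libraries and 316, 359.7 and 336 in DMSO libraries, a change of -1.05 ± 0.22 (limma adjusted p = 0.00231). Only 8.7% of its 31-base stretches were unique among annotated transcripts, so reads of other H3.3 transcripts could have been assigned to it.

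Among linker variants, H1f0, the H1 form that accumulates in cells that have left the cell cycle, had 9055, 8498 and 8471 in sorafenib libraries and 10684, 11433 and 11015 in DMSO libraries. No sorafenib library reached the lowest DMSO library, and the change was -0.35 ± 0.04 (limma adjusted p = 4.42e-05). H1f10, a linker histone expressed in many tissues, had 724, 702 and 653 in sorafenib libraries and 826, 689.6 and 657 in DMSO libraries. These ranges overlapped and the change of -0.06 ± 0.10 did not pass (limma adjusted p = 0.594). H3f3aos, whose annotated start overlaps that of H3f3a on the opposite strand of chromosome 1, had 13, 12.3 and 7.34 in sorafenib libraries and 31.3, 68.2 and 28.9 in DMSO libraries. It fell by 1.81 on the log2 scale (SE 0.38, limma adjusted p = 0.00194), next to the decrease of H3f3a; the libraries were stranded, but whether quantification used the strand is not stated in the labels.

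**Figure D1:**
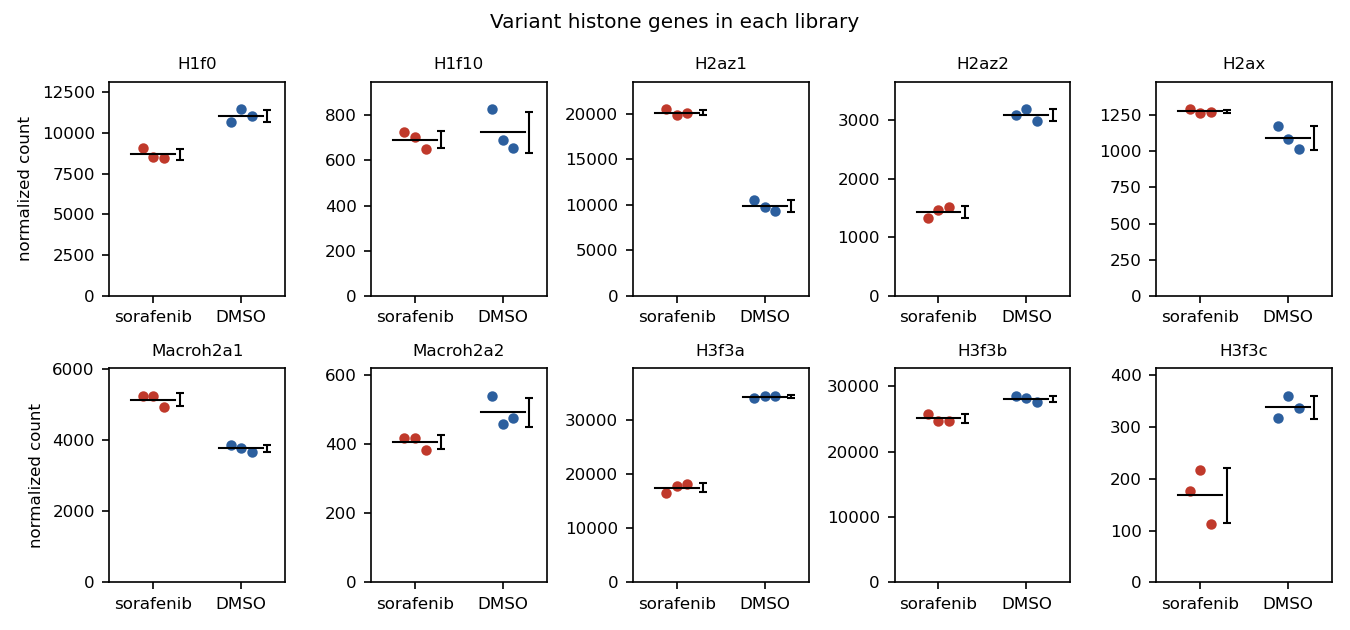
Normalized counts of the 10 variant histone genes in each library, sorafenib (red, 3 libraries) left of DMSO (blue, 3 libraries), each panel with its own linear axis from 0. Horizontal lines are means and error bars ± 1 SD; H2az1 sits near 20161 in sorafenib and 9895 in DMSO libraries, H2az2 and H3f3a lie in the opposite order, H1f10 overlaps, and the small H3f3b difference vanishes under other scalings (-0.01 and 0.01 log2).

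Replication-dependent genes moved in both directions, and the most abundant ones fell: H1f2, H2bc4 and H2ac24 together held 74.4% ± 2.56 of all replication-dependent normalized counts in sorafenib libraries and 83.7% ± 0.886 in DMSO libraries (SD, n = 3 each), and all 3 passed the test as lower. Of the 40 genes tested, 12 rose, 14 fell and 14 did not pass by limma (65% called, against 76.6% of all genes; 38.8% of all genes were higher and 37.8% lower), with a median log2 change of -0.03 beside 0.02 over all genes. Of the 12 that rose, H2bc3, H4c1 and H2ac20 passed the filter only through the sorafenib libraries, which fixed their direction; without them 9 rose and 14 fell of 37. The number that rose was 5 without sorafenib library 1, 6 without sorafenib library 2 and 3 of 21 tested at a minimum of 50 normalized counts, while the number that fell was 13 to 17 over all omissions of a library and 12 at that minimum. Of the 12 with a mean of at least 100 normalized counts, 2 rose and 8 fell, with a median of -1.14, against 5460 that rose and 4884 that fell among the 12477 genes tested at that level. Of the 28 below that mean, 10 rose and 6 fell, with a median of 0.13, and without the same 3 genes 7 rose and 6 fell of 25, with a median of 0.00; 961 rose and 1389 fell among 4105 genes of the same range of levels. With these bulk libraries, fewer cells making a histone mRNA and less of it per cell cannot be told apart. The proliferation markers named above fell in the same libraries (18 of 20), and their part in the histone changes was not tested.

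Summed over the 65 replication-dependent genes matched, including those below the filter, normalized counts came to 10928, 10332 and 10401 in sorafenib libraries and 23168, 26530.2 and 24786 in DMSO libraries. The ratio of sorafenib to DMSO was 0.43, and the groups did not overlap. Without H1f2, H2bc4 and H2ac24 the sums were 3105, 2582 and 2434 in sorafenib libraries and 3753, 4581 and 3844 in DMSO libraries, still with no overlap. By class, the mean sums were 5262 ± 300.0 in sorafenib libraries and 12361 ± 1130 in DMSO libraries for H1, 989 ± 24.2 in sorafenib libraries and 3965 ± 312 in DMSO libraries for H2A, 3322 ± 120.0 in sorafenib libraries and 7096 ± 608 in DMSO libraries for H2B, and 306 ± 30.3 in sorafenib libraries and 680.1 ± 60.8 in DMSO libraries for H3 (SD, n = 3 each). In each of these 4 classes every sorafenib library was below every DMSO library. The H2A sums leave out H2aw and H2aj, which the name pattern does not match. The H4 sums overlapped, at 812, 614 and 594 in sorafenib libraries and 669, 849 and 658 in DMSO libraries. An exact permutation test of 3 against 3 libraries cannot give a p under 0.1, so no p is given for these sums.

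**Figure D2:**
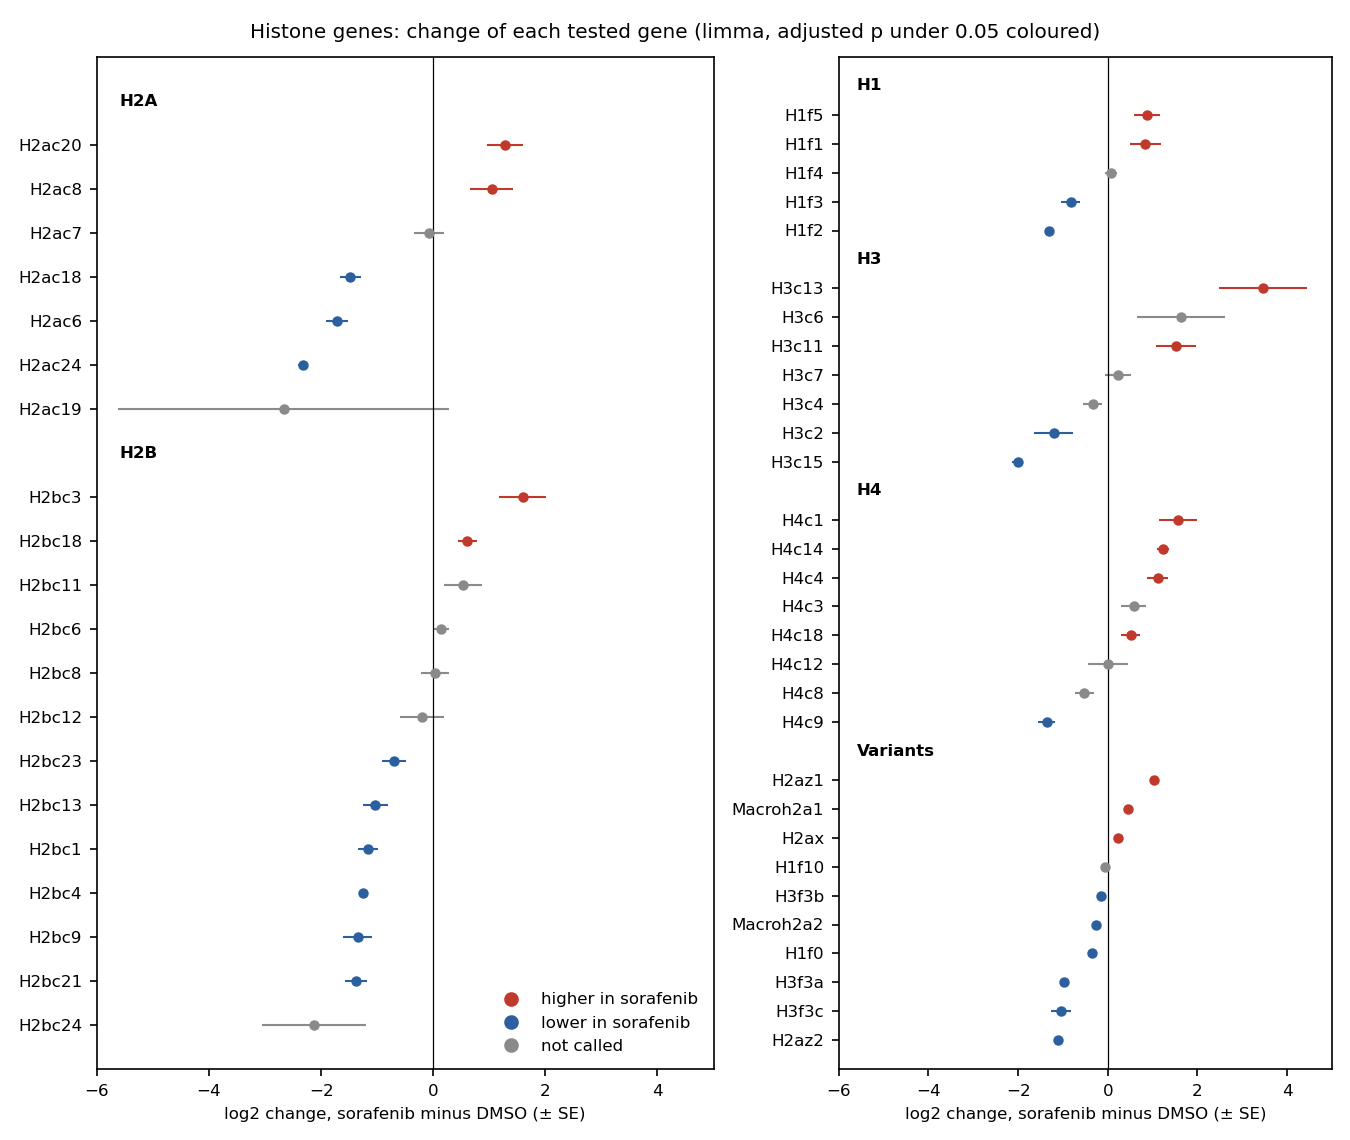
Change of the 50 histone genes tested, as log2 sorafenib minus DMSO with its standard error, grouped as replication-dependent H2A and H2B (left), H1, H3 and H4, and the variants (right). Red points rose, blue points fell and grey points did not pass (limma, adjusted p under 0.05). Calls of both directions occur in each replication-dependent class, from H3c13 at 3.46 to H2ac24 at -2.32. Among those that rose, H2ac20, H2bc3 and H4c1 passed the filter only through the sorafenib libraries, which fixed their direction. H2ac8, H1f5 and H1f1 also rose but were each called in only 2 of 6 fits that left out a library. The H3f3b and Macroh2a2 calls end under other scalings.

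Linker histone H1 compacts chromatin by binding where DNA enters and leaves the nucleosome. Its replication-dependent genes lie on chromosome 13, and 2 of 5 fell, 2 rose and 1 did not pass. H1f2, the most abundant of all replication-dependent genes, had 4974, 4556 and 4676 normalized counts in sorafenib libraries, against 10597, 12662 and 11964 in DMSO libraries. The DMSO libraries were all more than 2-fold above the sorafenib libraries, and the log2 change was -1.31 ± 0.07 (limma adjusted p = 2.26e-07). H1f3 had 203, 166 and 141 in sorafenib libraries and 249, 412 and 259.9 in DMSO libraries, a change of -0.83 ± 0.21 (limma adjusted p = 0.00684). H1f4 had 358, 282 and 249 in sorafenib libraries and 262, 302 and 274 in DMSO libraries, so the groups overlapped, and its change of 0.07 ± 0.14 did not pass. H1f5 was a low-level gene, with 46.7, 45.2 and 31.3 in sorafenib libraries and 31.2, 19 and 16.7 in DMSO libraries. The lowest sorafenib library just exceeded the highest DMSO library, and the change of 0.88 ± 0.29 (limma adjusted p = 0.0206) no longer passed without DMSO library 2, DMSO library 3, sorafenib library 1 or sorafenib library 2 (0.71 to 1.14 over all 6 omissions). The same 4 omissions ended the call of H1f1, whose change was 0.84 ± 0.34.

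H2A forms a dimer with H2B on the outside of the nucleosome. Of 7 replication-dependent H2A genes tested, 3 fell, 2 rose and 2 did not pass. H2ac24 had 549.9, 655 and 611 in sorafenib libraries, against 3395, 2961 and 2718 in DMSO libraries. The groups were far apart, with a log2 change of -2.32 ± 0.09 (limma adjusted p = 5e-08), the largest decrease among the replication-dependent genes called. Its annotated transcript ends 3 bases past the stem-loop, and only 6.6% of its 31-base stretches were unique, so its reads could also come from other H2A copies. The sum of all other replication-dependent H2A genes matched nevertheless had the same order, at 426, 362 and 364 in sorafenib libraries and 861, 1044 and 917 in DMSO libraries. This sum leaves out H2aw, an H2A gene that the name pattern does not match. H2aw had 809, 625 and 607 in sorafenib libraries and 593, 621.5 and 602 in DMSO libraries.

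H2ac18 and H2ac19 are near-identical neighbours on chromosome 3, with 10.3% and 0.0% unique stretches. H2ac18 had 288, 168 and 254 in sorafenib libraries and 605, 604 and 734 in DMSO libraries, a decrease with no overlap (-1.48 ± 0.19, limma adjusted p = 0.000146). H2ac19 was listed at 0, 88 and 0 in sorafenib libraries and 93.5, 244 and 0 in DMSO libraries, jumping between 0 and high values within each group. Added together, the copies gave 288, 256 and 254 in sorafenib libraries and 699, 848 and 734 in DMSO libraries, with every sorafenib library below every DMSO library. H2ac6, most of whose sequence is unique (83.2%), had 45.7, 30.4 and 29.3 in sorafenib libraries and 111, 116 and 119.8 in DMSO libraries. It fell in every sorafenib library, by 1.72 on the log2 scale (SE 0.20, limma adjusted p = 4.23e-05). The H2A genes that rose were weakly expressed: H2ac20 had 11.9, 12 and 12 in sorafenib libraries and 3.89, 4.73 and 4.45 in DMSO libraries (1.28 ± 0.32, limma adjusted p = 0.00514), and only the sorafenib libraries took it past the filter. H2ac8 had 27.5, 12 and 21.2 in sorafenib libraries and 7.79, 13 and 6.69 in DMSO libraries; the groups overlapped and its call ended in 4 of 6 fits that left out a library.

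H2B was the class with the most tested genes, and 6 of 13 fell, 2 rose and 5 did not pass. The 2 that rose include H2bc3, whose direction was fixed by the filter. H2bc4 on chromosome 13 had 2299, 2539 and 2679.7 in sorafenib libraries, against 5423, 6326 and 6259 in DMSO libraries. Every DMSO library was more than 2-fold above every sorafenib library, with a log2 change of -1.26 ± 0.07 (limma adjusted p = 6.75e-07). Its gene model has no stem-loop and 2 exon blocks, unlike the usual intronless form. H2bc6, H2bc23 and H2bc24 also had more than 1 exon block. H2bc13, of which 11.4% of stretches were unique, had 101, 182 and 154 in sorafenib libraries and 237, 311 and 328 in DMSO libraries, and fell (-1.03 ± 0.22, limma adjusted p = 0.00282). H2bc21 on chromosome 3, whose sequence was 97.2% unique, had 53.9, 51.5 and 35.7 in sorafenib libraries and 127, 118 and 121 in DMSO libraries. Its groups were well separated (-1.38 ± 0.19, limma adjusted p = 0.000118). The other H2B decreases ran from -0.70 for H2bc23 to -1.16 for H2bc1, a form known from testis, and -1.35 for H2bc9.

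H2bc3 and H2bc18 were the H2B genes that rose. H2bc3 passed the filter only through the sorafenib libraries, which fixed its direction and the lack of overlap. H2bc3 had 16.5, 12 and 17.5 in sorafenib libraries and 4.86, 7.09 and 2.22 in DMSO libraries, low values without overlap (1.60 ± 0.42, limma adjusted p = 0.00658; 0.79 with 10 added before taking logs and 1.81 with 0.1). H2bc18 had 64.1, 55.7 and 54.7 in sorafenib libraries and 38.8, 36.5 and 37.7 in DMSO libraries (0.61 ± 0.17, limma adjusted p = 0.00934). The near-identical H2bc23 and H2bc24 summed to 106, 61.6 and 47.8 in sorafenib libraries and 117, 194 and 165 in DMSO libraries. All sorafenib sums were below all DMSO sums, although H2bc24 alone did not pass the test (-2.13 ± 0.93, limma adjusted p = 0.0729).

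**Figure D3:**
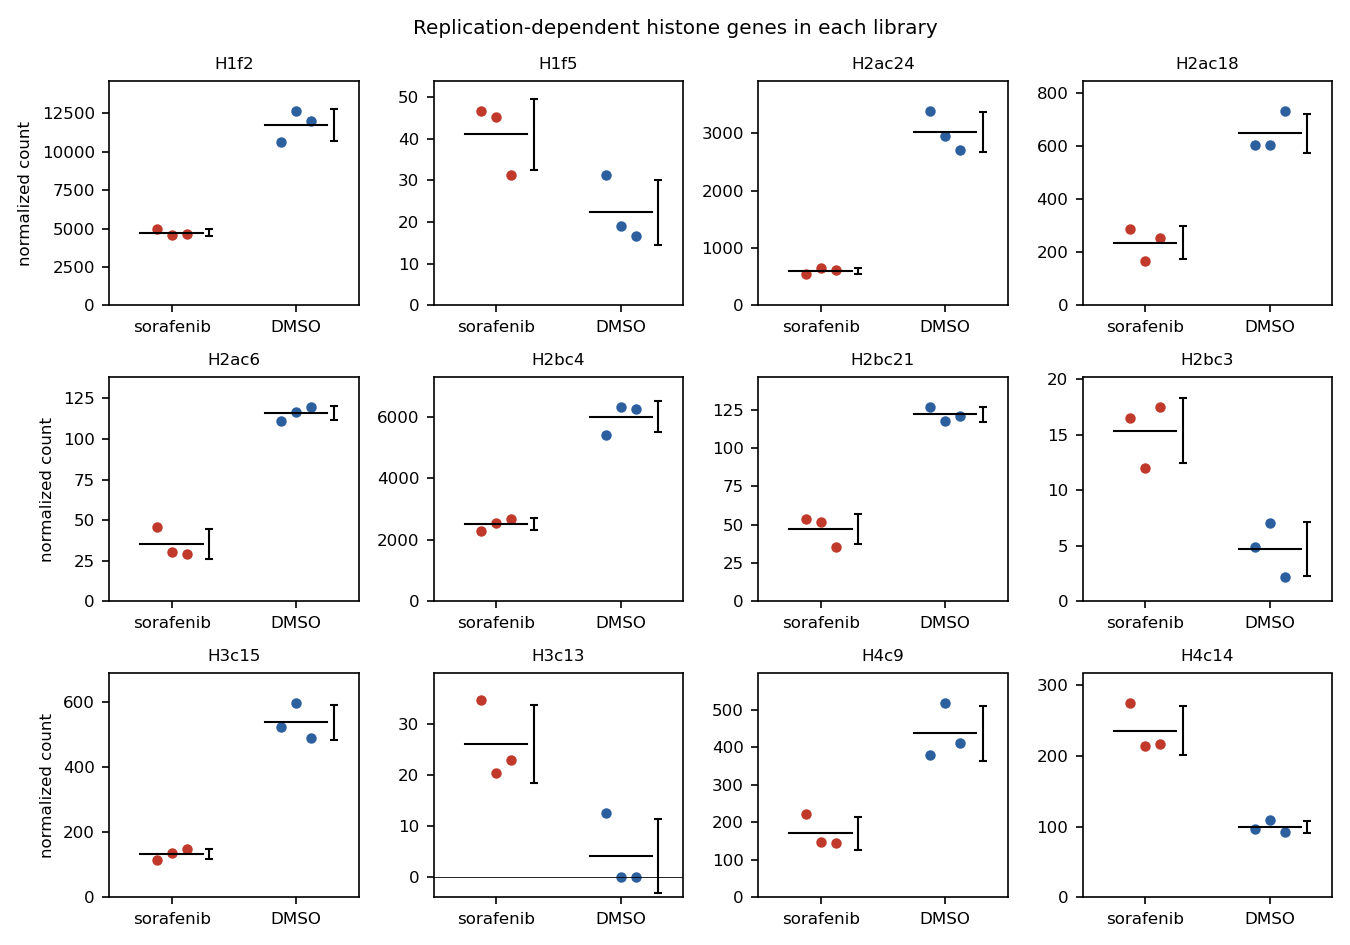
Normalized counts of 12 replication-dependent genes in each library, sorafenib (red, 3 libraries) left of DMSO (blue, 3 libraries), with the mean as a line, ± 1 SD as a bar and a separate linear axis in each panel. H1f2, H2ac24, H2ac18, H2ac6, H2bc4, H2bc21, H3c15 and H4c9 lie lower in sorafenib libraries, while H1f5, H2bc3, H3c13 and H4c14 lie higher. H2bc3 passed the filter only through the sorafenib libraries.

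H3 and H4 form the tetramer at the centre of the nucleosome. Of 7 replication-dependent H3 genes, 2 fell, 2 rose and 3 did not pass. H3c15 on chromosome 3 had 116, 136 and 149 in sorafenib libraries, against 524, 599 and 492 in DMSO libraries. The highest sorafenib library was far below the lowest DMSO library, and the log2 change was -2.01 ± 0.12 (limma adjusted p = 6.09e-07). H3c4 had 82.3, 49.7 and 54.2 in sorafenib libraries and 70.2, 81.9 and 78.2 in DMSO libraries. Sorafenib library 1 was the highest of all 6, so the groups overlapped and the change of -0.34 ± 0.21 did not pass (limma adjusted p = 0.177); without that library it was -0.55 and passed (adjusted p = 0.0204). H3c13 had 34.7, 20.3 and 23 in sorafenib libraries, against 12.6, 0 and 0 in DMSO libraries. All sorafenib libraries were higher, 2 DMSO libraries were listed at 0, and the fitted change of 3.46 ± 0.98 (limma adjusted p = 0.0128) therefore depends on the 1 added before taking logs: it was 5.66 with 0.1 added and 1.44 with 10. The others called were H3c11, which rose (1.52 ± 0.44), and H3c2, which fell (-1.21 ± 0.44) but lost its call in 4 of 6 fits that left out a library. Of their 31-base stretches, 35.8% were unique in H3c15, 19.4% in H3c13, 6.8% in H3c11 and 38.1% in H3c2. Reads of other H3 copies could therefore have been assigned to these genes or taken from them, which was not tested.

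Of 8 H4 genes 4 rose, 1 fell and 3 did not pass; without H4c1, which passed the filter only through the sorafenib libraries, 3 rose and 1 fell of 7. H4c14 on chromosome 3 had 275, 214 and 216 in sorafenib libraries, against 96.6, 109 and 92.8 in DMSO libraries. Every sorafenib library was far above every DMSO library, with a log2 change of 1.23 ± 0.14 (limma adjusted p = 3.87e-05) on a sequence that is 97.7% unique. H4c9 on chromosome 13 moved the other way, with 222, 147 and 145 in sorafenib libraries and 379.9, 519 and 412 in DMSO libraries. No sorafenib library came near the DMSO range (-1.36 ± 0.19, limma adjusted p = 0.000157). H4c4 had 50.3, 34.1 and 37.6 in sorafenib libraries and 17.5, 17.8 and 19 in DMSO libraries, and rose (1.11 ± 0.23, limma adjusted p = 0.0018). H4c1 had 11, 11.1 and 14.8 in sorafenib libraries and 1.95, 5.91 and 3.34 in DMSO libraries, and also rose (1.56 ± 0.42, limma adjusted p = 0.00723; 0.70 with 10 added before taking logs and 1.82 with 0.1). H4c18 changed by 0.51 ± 0.21, with overlapping groups and a call that ended in 4 of 6 fits that left out a library.

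The 14 replication-dependent genes that did not pass ranged from -2.67 for H2ac19 to 1.63 for H3c6, and the groups did not overlap for 26 of the 40 (11 with sorafenib above, 15 below), against 79.5% of all genes (40.1% above, 39.4% below). Leaving out each library in turn kept 21 of the 26 calls in every fit that tested the gene, 8 of them higher and 13 lower. The 8 higher calls include H2bc3, H4c1 and H2ac20, which were tested in only 3 of the 6 fits. Leaving out any sorafenib library took them below the filter. H2bc3, H4c1 and H2ac20 passed the filter only through the sorafenib libraries and so had to differ: none of them reached 10 normalized counts in any DMSO library. Just inside the filter, H4c1 averaged 8.01 over all 6 libraries and H2ac20 averaged 8.17. Just outside it were 5 genes with 2 libraries at 10 or above. In all 5 those 2 were sorafenib libraries, so the order of the groups was largely set by how the genes were picked. H2bc14 had 29.3, 13.9 and 6.45 in sorafenib libraries and 0.971, 0 and 1.11 in DMSO libraries. H2bc15 had 25.5, 11.1 and 9.23 in sorafenib libraries and 0, 0 and 2.21 in DMSO libraries, and H2bc7 had 12.8, 7.41 and 19.4 in sorafenib libraries and 1.94, 3.54 and 5.55 in DMSO libraries. H4c2 had 14.7, 11.1 and 5.55 in sorafenib libraries and 3.88, 4.72 and 3.33 in DMSO libraries. In these 4 genes every sorafenib library was above every DMSO library, whereas H4c11 overlapped, with 13.7, 7.38 and 12.9 in sorafenib libraries and 5.85, 9.48 and 5.58 in DMSO libraries. Of the others below the filter, 5 reached 10 in 1 library and 12 in none. The 7 genes at 0 throughout were H1f7, H1f8, H2ac1, H2ac14, H3c14, H4c17 and Macroh2a3.

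**Figure D4:**
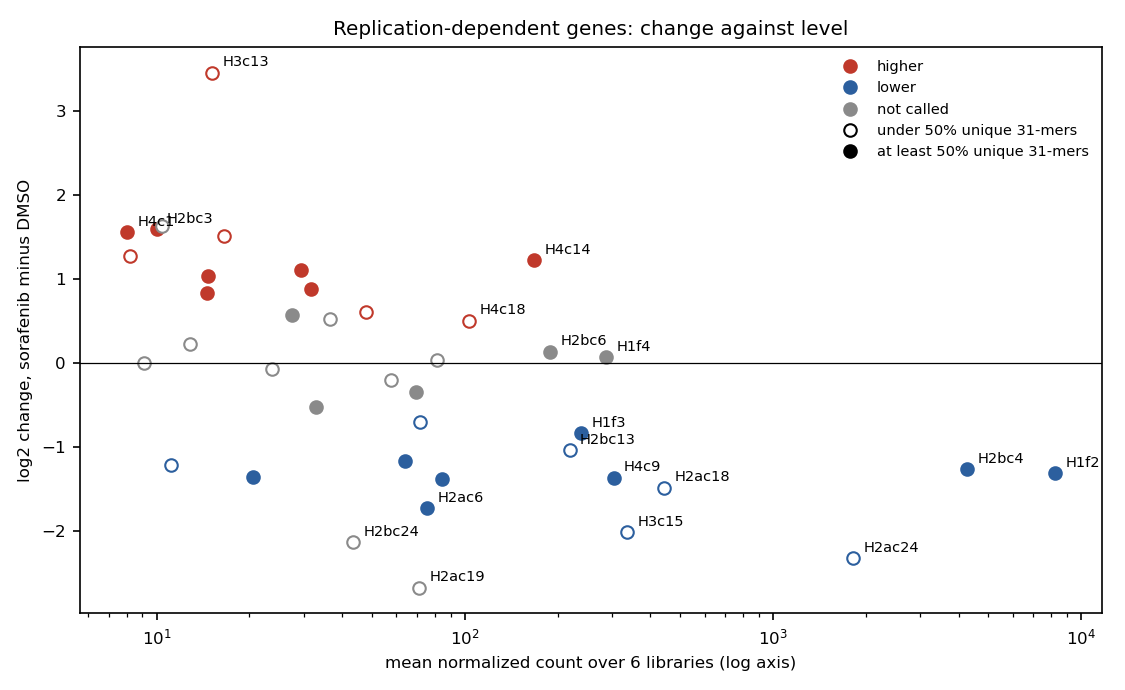
Log2 change (sorafenib minus DMSO) of the 40 replication-dependent genes against their mean normalized count over 6 libraries on a log axis; red rose, blue fell, grey did not pass, and open circles have under 50% unique 31-base stretches. The 3 most abundant genes, H1f2, H2bc4 and H2ac24, all lie below 0, and 10 of the 12 points that rose lie at means under 100, of which 3 passed the filter only through the sorafenib libraries.

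The calls were also counted by gene model, beside 76.6% called among all genes. Where the annotated transcript ran over 100 bases past the stem-loop, 4 of 17 genes rose and 6 fell (58.8% called). Where it ended within 100 bases, 3 of 11 rose and 3 fell (54.5%), and with no stem-loop in the model, 5 of 12 rose and 5 fell (83.3%). A model without the element need not mean a gene without it, as some such models are short. Those of H2bc13 and H2bc18 have 381 bases of exon each and that of H4c12 has 312. Genes with at least 50% unique 31-base stretches gave 7 that rose and 8 that fell of 20 (75% called), and those under 50% gave 5 and 6 of 20 (55%). The main cluster on chromosome 13 gave 8 that rose and 11 that fell of 32 (59.4% called), and the smaller one on chromosome 3 gave 4 and 3 of 8 (87.5%). The 3 genes whose direction the filter fixed are among these counts, and the splits were not tested against each other.

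Histone genes of H2A and H2B often start back to back and share the DNA between them. In GENCODE M21, 14 such pairs of matched genes started within 1000 bases of each other, 13 of them an H2A with an H2B gene, and in 5 both genes were tested. H2ac6 and H2bc4, whose starts are 250 bases apart, both fell (-1.72 and -1.26). H2bc21 fell (-1.38) next to H2ac20 at 238 bases, whose 1.28 had a direction fixed by the filter, since only sorafenib libraries took it past the minimum. H2ac24 fell next to H2bc24 at 235 bases, which did not pass; H2ac8 rose next to H2bc8 at 175 bases, which did not pass; and H2bc9 fell next to H3c7 at 659 bases, which did not pass. The stretches shared by the first 2 pairs are shown with the promoter of H2az1, as RefSeq gives them on GRCm38.p6, each 250 bases before to 50 bases after the start of the gene named and on that gene's strand. Capitals mark the letters TATAAA of the TATA box, the CCAAT box, and the octamer ATTTGCAT, on either strand, where CCAAT and the octamer can share end bases. The H2ac6 stretch lies at chr13:23683910-23684209 on the minus strand, that of H2ac20 at chr3:96220831-96221130 on the minus strand, and that of H2az1 at chr3:137864237-137864536 on the plus strand.
H2ac6 promoter: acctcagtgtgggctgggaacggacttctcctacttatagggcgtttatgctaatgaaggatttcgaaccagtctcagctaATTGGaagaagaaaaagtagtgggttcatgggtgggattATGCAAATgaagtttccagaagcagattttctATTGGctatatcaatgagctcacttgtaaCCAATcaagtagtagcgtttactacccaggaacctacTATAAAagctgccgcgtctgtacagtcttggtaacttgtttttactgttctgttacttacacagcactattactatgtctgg
H2ac20 promoter: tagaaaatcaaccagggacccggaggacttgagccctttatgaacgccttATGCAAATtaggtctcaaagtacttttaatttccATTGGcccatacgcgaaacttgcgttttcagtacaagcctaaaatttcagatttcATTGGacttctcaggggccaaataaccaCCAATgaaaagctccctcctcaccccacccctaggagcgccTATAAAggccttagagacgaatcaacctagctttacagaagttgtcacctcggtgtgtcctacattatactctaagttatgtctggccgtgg
H2az1 promoter: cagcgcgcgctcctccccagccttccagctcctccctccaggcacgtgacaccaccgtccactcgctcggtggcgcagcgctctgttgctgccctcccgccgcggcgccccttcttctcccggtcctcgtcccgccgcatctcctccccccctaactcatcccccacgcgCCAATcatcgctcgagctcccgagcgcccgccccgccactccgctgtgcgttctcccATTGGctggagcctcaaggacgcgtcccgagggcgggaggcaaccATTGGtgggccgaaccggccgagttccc
Both shared stretches hold TATAAA as well as the CCAAT box and the octamer, and the H2az1 stretch holds CCAAT without TATAAA or the octamer. A RefSeq promoter was matched for 44 of the 51 members, with 45 entries. TATAAA was present in 21 of 36 replication-dependent entries (58.3%), 1 of 9 variant entries (11.1%) and 13.6% of all 32851 promoters of this length. CCAAT was present in 32 of 36 replication-dependent entries (88.9%), 5 of 9 variant entries (55.6%) and 37.4% of all. The octamer was in 9 of 36 (25%), of which 6 were H2B and 3 H2A entries, in 1 of 9 variant entries and in 1.74% of all. TTTCCCGC was in 1 of 36 and TTTCGCGC in 3 of 36 replication-dependent entries, against 1.07% and 0.323% of all promoters. Entries are not all separate stretches: those of H2ac8 and H2bc8 cover mostly the same bases, so their matches are counted more than once. H2bc6 has more than 1 entry. These are matches of letters, not measured binding.

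The variant share of H2A and of H1 was higher in sorafenib libraries. Per kilobase of exon, variant genes held 88.2% ± 0.538 of H2A normalized counts in sorafenib libraries and 53.8% ± 0.907 in DMSO libraries (SD, n = 3 each). H2az1 alone held 71.0% ± 0.823 in sorafenib libraries and 33.2% ± 0.468 in DMSO libraries. The H2A difference was 34.4 percentage points per kilobase and 14.4 without division by length, with every sorafenib library above every DMSO library on both scales. For H1 the variant share was 59.3% ± 0.465 in sorafenib libraries and 43.6% ± 1.75 in DMSO libraries, most of it H1f0. H3 was almost wholly variant in both, 97.3% ± 0.341 in sorafenib libraries and 96.6% ± 0.316 in DMSO libraries, but within it H3f3b held 59.3% ± 1.36 in sorafenib libraries and 45.5% ± 0.518 in DMSO libraries. H3f3a held 35.1% ± 1.89 in sorafenib libraries and 47.2% ± 0.62 in DMSO libraries. H2B and H4 have no variant gene among those matched. These shares describe poly(A)-selected RNA, in which mRNAs that end at the stem-loop are under-represented, and no test was made of them.

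**Figure D5:**
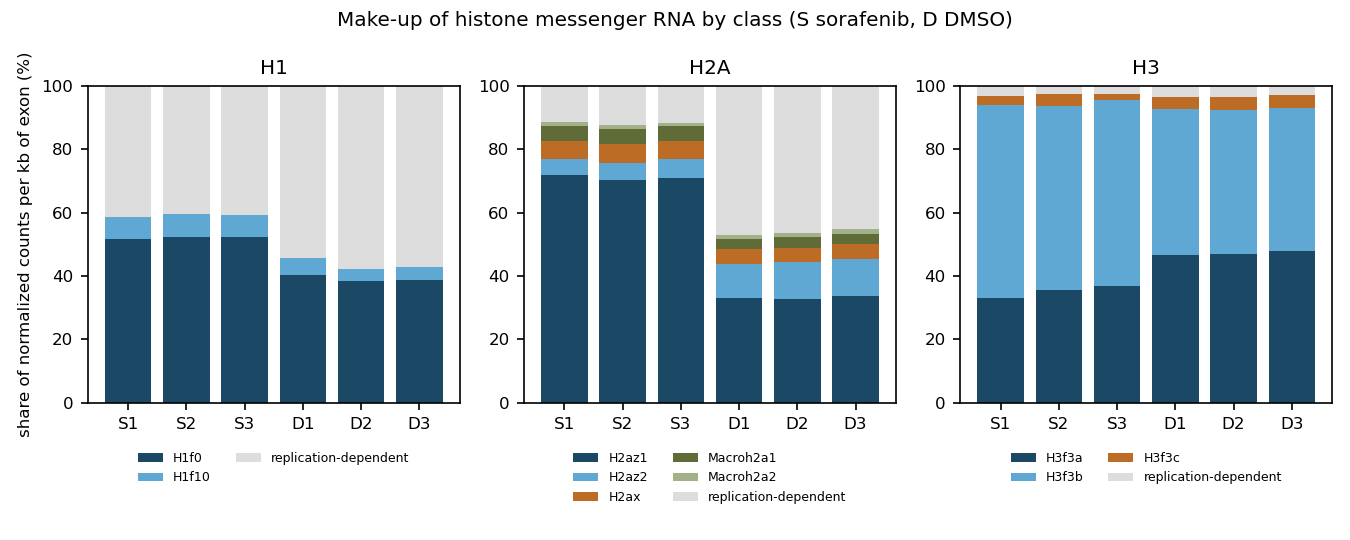
Share of normalized counts per kilobase of exon held by each variant gene and by all replication-dependent genes (grey) in H1, H2A and H3, 1 bar per library, with the sorafenib libraries (S1 to S3) left of the DMSO libraries (D1 to D3). H2az1 fills 70.2% to 71.8% of the H2A bar in sorafenib libraries and 32.7% to 33.6% in DMSO libraries, while H3f3b and H3f3a change places within H3. H2aw and H2aj, which the name pattern does not match, are not in the H2A bars.

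Levels per kilobase placed H2az1 first among the 50 genes in sorafenib libraries, at 11352, followed by H3f3b at 8420 and H3f3a at 4990.3. In DMSO libraries the order was H3f3a at 9775, H3f3b at 9431, H1f2 at 7526, H2ac24 at 6276 and H2az1 at 5571. The means of H3f3a and H3f3b in DMSO libraries lay close together on this scale, whereas in sorafenib libraries H3f3b was above H3f3a in each library.

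Of 16 tested genes that act in making and processing replication-dependent histone mRNA, 11 rose, 1 fell (Ncbp2, a cap-binding subunit, -0.64) and 4 did not pass (Zfp473, -0.48; Pou2f1, 0.12; Cpsf2, 0.06; Ncbp1, 0.02). This was 75% called, against 76.6% of all genes (38.8% higher and 37.8% lower), with a median log2 change of 0.24 beside 0.02 over all genes. Npat, the coactivator of histone gene transcription, averaged 2837 ± 62.1 in sorafenib libraries and 1656 ± 141 in DMSO libraries (SD, n = 3 each; log2 change 0.78 ± 0.06, limma adjusted p = 3.34e-06). Lsm11, a subunit of the U7 particle that cuts the pre-mRNA, averaged 1598 ± 28.8 in sorafenib libraries and 1004 ± 40.0 in DMSO libraries (0.67 ± 0.05, limma adjusted p = 3.05e-06). Slbp, the stem-loop binding protein, had 1965, 2154 and 1888 in sorafenib libraries and 1548, 1404 and 1293 in DMSO libraries, and rose by 0.50 ± 0.08 (limma adjusted p = 0.000265).

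Histone mRNA decay genes gave 10 that rose, 2 that fell (Lsm4 and Lsm6, subunits of a ring that binds mRNA tails, -0.30 and -0.19) and 5 that did not pass (Lsm1, 0.13; Upf1, -0.07; Tut7, Lsm2 and Lsm3, -0.01 each) of 17, which is 70.6% called against 76.6% of all genes, with a median of 0.21. Tut4, which adds uridines to RNA ends, averaged 4949 ± 88.2 in sorafenib libraries and 1759 ± 120.0 in DMSO libraries (1.49 ± 0.05, limma adjusted p = 2.23e-08). Tut1, another uridine-adding enzyme, changed by 0.51 ± 0.05. Of 15 general polyadenylation genes, 13 rose and 2 fell (Pabpn1 and Wdr33, -0.47 and -0.14), or 100% called against 76.6%, with a median of 0.33. Pabpc1, the cytoplasmic poly(A)-binding protein, changed by 1.26 ± 0.04 (limma adjusted p = 5.65e-09), and Tent4b, a non-canonical poly(A) polymerase, by 0.91 ± 0.04.

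Chaperones escort histones to DNA. Of 13 that act with replication, 10 rose and 3 fell (Asf1b, Rbbp4 and Rbbp7, at -0.67, -0.41 and -0.27), or 100% called against 76.6% of all genes, with a median of 0.29; without sorafenib library 2, 6 rose. Mcm2, a helicase subunit that also binds H3 and H4, changed by 1.20 ± 0.05 (limma adjusted p = 8.87e-08), and Cdan1, which binds the chaperone Asf1, by 0.64 ± 0.06. Of 21 that act outside replication or on variants, 13 rose, 6 fell and 2 did not pass (Atrx, -0.09, and Ubn1, 0.01), or 90.5% called, with a median of 0.28. Spty2d1, an H3 and H4 chaperone, averaged 10166 ± 357 in sorafenib libraries and 2552 ± 52.4 in DMSO libraries (1.99 ± 0.04, limma adjusted p = 9.9e-10), and Npm1, a nucleolar chaperone, changed by 0.92 ± 0.04. Anp32e, which removes H2A.Z from chromatin, had 5588, 5338 and 5869 in sorafenib libraries, against 11755, 11563 and 10844 in DMSO libraries. It fell by 1.02 on the log2 scale (SE 0.05, limma adjusted p = 8.7e-08), with all sorafenib libraries near the same level and far below the DMSO libraries. Of the other genes of the list that act in H2A.Z exchange, Srcap (-0.45) and Znhit1 (-0.21) fell, and Ino80 (0.62), Ep400 (0.28) and Vps72 (0.17) rose. Of those that place H3.3, Hira (0.98), Ubn2 (0.62), Cabin1 (0.59) and Daxx (0.48) rose, and Atrx and Ubn1 are the 2 that did not pass.

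Of 40 tested genes of DNA replication and S phase, 24 rose, 9 fell and 7 did not pass (82.5% called, against 76.6% of all genes), with a median of 0.31. Their summed levels overlapped, at 75586 to 81321 in sorafenib libraries and 75878 to 83997 in DMSO libraries. The smallest p was that of Cdt1, a replication licensing factor (2.25 ± 0.07, limma adjusted p = 9.71e-09). Rrm2, the regulated subunit of ribonucleotide reductase, fell (-1.21 ± 0.06, limma adjusted p = 1.6e-07). The 20 mitosis and proliferation markers had a median of -0.86; Cenpf, a kinetochore protein, changed by -1.68 ± 0.07 and Mki67, a coat protein of mitotic chromosomes, by -1.53 ± 0.08. Of other histone genes that the name pattern does not match, 3 were tested. Cenpa, the centromeric H3 variant, averaged 698 ± 46.2 in sorafenib libraries and 1555 ± 258 in DMSO libraries and fell (-1.14 ± 0.12, limma adjusted p = 2.27e-05). H2aj, an H2A gene with a polyadenylated mRNA, rose by 0.24 ± 0.08 (limma adjusted p = 0.0241), a call lost without DMSO library 2, DMSO library 3 or sorafenib library 1, and H2aw did not pass (0.16 ± 0.11).

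In the authors' deposited table of fold changes and adjusted p-values, 4 of the 40 replication-dependent genes were higher and 14 lower at adjusted p under 0.05. Of the 40, 17 passed in the same direction there and by limma. H1f1, H1f5, H2ac8, H2ac20, H2bc18, H3c11, H4c1 and H4c18, which rose by limma, did not pass there, nor did H3c2, which fell. H2bc24 was lower there and did not pass by limma. For variants the authors' deposited table had 3 higher and 6 lower, and 9 passed in the same direction in both. H1f10 passed in neither.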

How the data were processed

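Poly(A)-selected, stranded RNA libraries were made from 3 sorafenib and 3 DMSO cultures, per the labels' protocols. The deposited table holds signal values per gene and library, which are counts that the authors normalized with DESeq2 (per the submitters' processing notes and the file headers), together with the authors' log2 fold change, Wald score, and p-value with its adjusted p-value. The notes also name bcl2fastq and GRCm38.p6, and the tool that assigned reads to genes is not named there. The low values of each library put 1 read at 0.913 to 0.919 normalized counts in sorafenib libraries and 0.976 to 1.19 in DMSO libraries, or roughly 76.4 to 77.4 M reads in sorafenib libraries and 65.5 to 80.2 M in DMSO libraries. Whole multiples of that step (tolerance 0.02 reads) made up 59.0% to 68.1% of low values, so whole reads could not be recovered and no count model was fitted.

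Of 55356 genes listed, the 16645 that reached 10 normalized counts in 3 or more libraries were tested with limma 3.58.1 in R 4.3.3 (trend and robust empirical Bayes, two-sided) on log2(normalized count + 1), with a term for group alone. Benjamini-Hochberg adjustment covered all 16645 genes, and the threshold was 0.05. Adding 1 shrinks the fold changes of low genes whose values vary little within a group. Where low values scatter down to 0, the fitted change can instead be larger than in the authors' deposited table. H3c13 was 3.46 by limma and 1.79 there, and H2ac19 was -2.67 by limma and -0.26 there. The limma step was tested on simulated data. No list was tested as a group: lists are given as counts and medians. The members, lists and named genes were chosen with earlier results of these data known. Named were all variants, in each replication-dependent class the 2 most abundant and the 2 with the largest change among those called, the 2 members of each list with the smallest p, the most abundant marker of each cell type, and the members behind counts of 5 or fewer, except in the counts of replication-dependent genes by class or gene model. Slbp, Anp32e, the other H2A.Z and H3.3 factors and the other histone genes named were chosen after their values were seen.

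The table's own positions are not those of GRCm38, so positions, exon lengths, stem-loops and unique 31-base stretches come from GENCODE M21, matched by gene identifier, and promoters from RefSeq on GRCm38.p6. Python 3.11.15 with pandas 2.3.3, numpy 2.4.6 and matplotlib 3.10.9 was used. Alternatives were equal totals, quantile normalization, a minimum of 50, no filter, a replicate block, omission of each library, and pseudocounts of 0.1 and 10.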

Additional observations from a re-analysis of the deposited data

How the results depend on the processing

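With libraries scaled to equal totals the median log2 change of all genes was 0.17, and with quantile normalization 0.06, against 0.02 as deposited. Under equal totals H1f10 was 0.10, H3f3b -0.01 and Macroh2a2 -0.12, decay genes that fell numbered 1, polyadenylation genes that fell 1 and other histone genes that rose 2. Under quantile normalization H3f3b was 0.01. With a minimum of 50, 21 replication-dependent genes were tested and 3 rose. With a pseudocount of 10, 2 processing genes fell. Not divided by length, the H2A variant share differed by 14.4 percentage points. Leaving out each library in turn, replication-dependent genes that rose numbered 5 to 10 (5 without sorafenib library 1, 6 without sorafenib library 2) and those that fell 13 to 17. Polyadenylation genes that fell numbered 1 to 2, other histone genes that rose 0 to 1 (0 without DMSO library 2, DMSO library 3 or sorafenib library 1), and replication-coupled chaperones that rose 6 to 10. H1f10 was 0.04 without DMSO library 1 and H1f4 ran from -0.07 (without sorafenib library 1) to 0.19 (without sorafenib library 3). The cause of these changes was not tested. The other 317 counts and shares recomputed stayed within their limits, 1.5 times the reported count or 1 SD of the reported share, and 314 values of named genes kept direction and side of the threshold.

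Samples that share a replicate number in both groups did not deviate together: the correlations over 16645 genes were 0.0769, 0.0448 and 0.022. With the replicate number as a block, 11 replication-dependent genes rose and 14 fell, and 3 variants rose and 6 fell. Low genes rest on few reads, near-identical copies share reads, and 3 libraries a group limit the precision.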

Other observations

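Genes that hold cells in or release them from G1 changed in both directions: 5 of 12 tested rose (Ccnd2, Ccnd1, Rbl1, Cdkn1b and E2f4) and 7 fell, with a median log2 change of -0.68. This was 100% called, against 76.6% of all genes (38.8% higher and 37.8% lower), whose median was 0.02. Ccnd2, a D-type cyclin, had 9780.3, 8659 and 8457 normalized counts in sorafenib libraries, against 837, 784 and 734 in DMSO libraries. It was far higher in every sorafenib library (3.51 ± 0.07, limma adjusted p = 9.92e-10). Cdkn1a, the inhibitor p21 that accumulates when myoblasts leave the cell cycle, had 50674, 55791 and 54879 in sorafenib libraries, against 162755, 153867 and 157948 in DMSO libraries. It was lower in every sorafenib library (-1.56 ± 0.04, limma adjusted p = 5.63e-09).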
